A study of Homo sapiens with 10 samples.

Results

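NCI-H2110 is a human non-small-cell lung cancer cell line that carries the p53 mutation R158P, and the data described here are its response to an siRNA against p53. The response was read from 2 libraries of 10 in the series: 1 from NCI-H2110 cells transfected with a control siRNA and 1 from NCI-H2110 cells transfected with the p53 siRNA, both numbered replicate 2. Members were all genes with 200 or more counts in either library, 9853 of 57736 gene IDs, and they hold 98.7% of the counts of each library. The sample titles call the second arm a knockout, while the protocol and the experiment label name an siRNA, so it is treated here as a knockdown. The other 8 libraries, used only for reference, come from NCI-H2087 (V157F) and NCI-H441 (R158L), each with 2 control and 2 p53 siRNA libraries. The line and its mutation cannot be told apart, because within the series R158P occurs in this line alone. The siRNA sequence, its dose and the time of harvest are not given in the sources used here.

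With 1 library per arm there is no replicate in NCI-H2110, so no test was made. Each value is a level in CPM, the count scaled to a common library size, or a log2 ratio of p53 siRNA over control siRNA. A log2 ratio of 1 is a 2-fold difference. Intervals in the text are exact 95% intervals for the split of the counts between the libraries, and they cover counting error only, not differences between cultures or library preparations.

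p53 is a transcription factor that halts the cell cycle or triggers cell death after damage, through targets such as CDKN1A and MDM2. Missense mutations in its DNA-binding domain, where all 3 mutations of the series lie, can take that activity away and leave an abundant mutant protein, to which further activities in invasion, receptor signalling and metabolism have been ascribed. In lung epithelium, NKX2-1 sets the identity of the distal airway and alveolar cells, whereas keratins such as KRT6A and KRT17 mark basal and squamous cells.

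Few genes of NCI-H2110 were past 2-fold. In the p53 siRNA library 54 genes were at least 2-fold higher (0.548% of the 9853) and 24 were at least 2-fold lower (0.244%). At 1.5-fold the counts were 388 higher (3.94%) and 278 lower (2.82%). The median log2 ratio was -0.02, and 46.9% of genes had a ratio above 0. Rises outnumbered falls past 2-fold, although the larger part of all genes was slightly lower. Near the count minimum, the 123 genes with 200 to 210 counts had ratios from -1.12 to 1.84, and the 104 genes with 190 to 199 counts, which were not described, had ratios from -0.97 to 0.60.

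**Figure D1:**
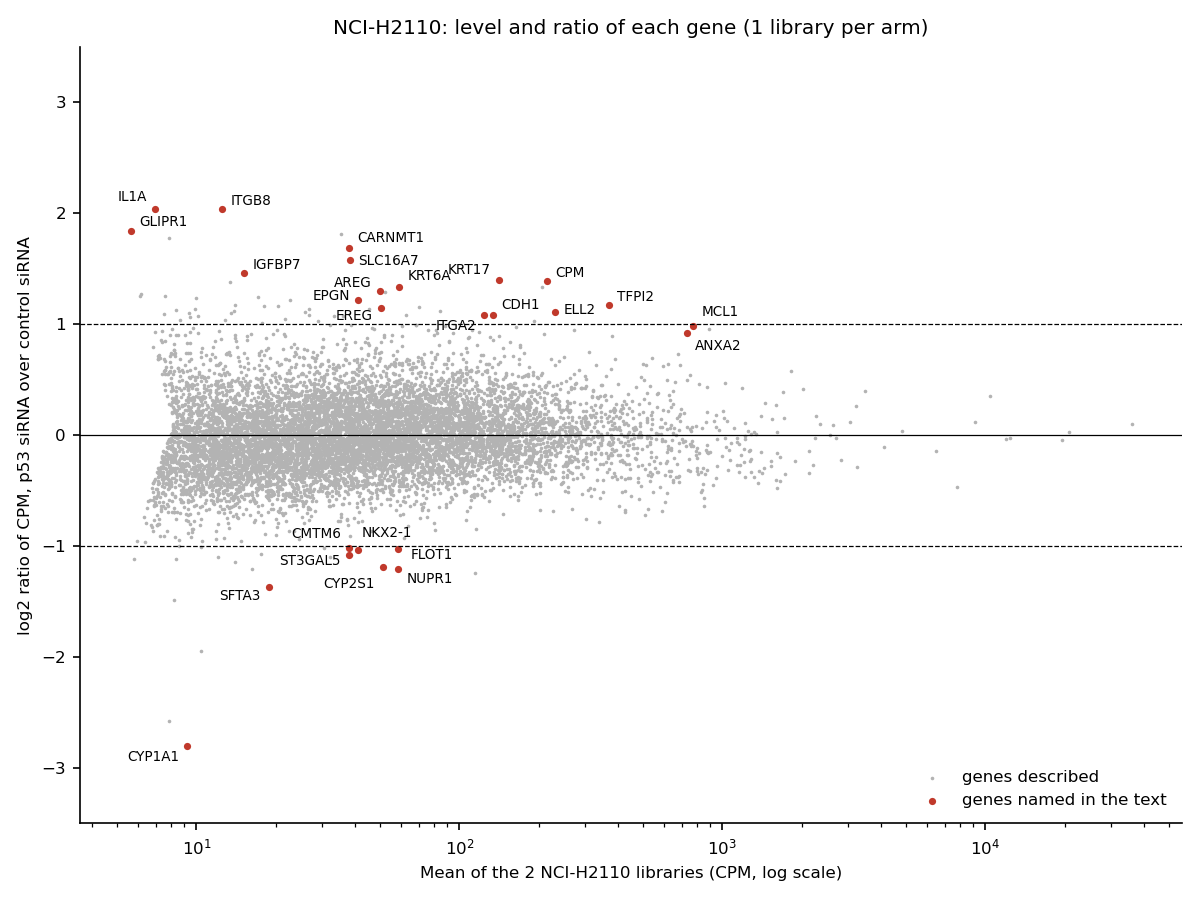
Mean level of each described gene in the 2 NCI-H2110 libraries (CPM, log scale) against its log2 ratio of p53 siRNA over control siRNA. Dashed lines mark 2-fold, red points are genes named in the text, and 2 genes listed at 0 counts in 1 library lie outside the axis. CYP1A1 (-2.81) stands below all other labelled genes, while MCL1 and ANXA2 are abundant genes near the upper line.

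The scale of these ratios was set beside the difference between libraries of the same arm in the other lines, which is the only replicate spread in the table. The standard deviation of the log2 ratio was 0.344 in NCI-H2110. Between replicates 2 and 1 it was 0.324 and 0.342 in the control arms of NCI-H2087 and NCI-H441, and 0.442 and 0.470 in their p53 siRNA arms. The share of genes past 2-fold, 0.792% in NCI-H2110, lay inside the 0.556% to 3.41% seen between same-arm libraries. The p53 siRNA pairs of NCI-H2087 had 7.33% and 10.97% of genes past 2-fold, and those of NCI-H441 had 0.228% and 1.26%. Over all genes, then, the NCI-H2110 pair lay within the range of same-arm differences in the other lines, above both control arms in its standard deviation and below both p53 siRNA arms.

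Each ratio was also set beside the same-arm differences of its own gene. Of 8075 genes measured in all 4 same-arm pairs, 1690 (20.9%) had a ratio in NCI-H2110 larger than their own largest same-arm difference. With 5 like differences for each gene, NCI-H2110 would have the largest in about 1 of 5 genes were it no different from the rest. The differences were not alike, with standard deviations over all genes from 0.324 to 0.470. The share therefore cannot tell whether NCI-H2110 had an excess. The same-arm differences come from other lines, and a gene expressed in NCI-H2110 alone has no such yardstick. The value for a named gene is given below as its largest same-arm difference, and genes named for a large ratio will often exceed it for that reason.

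**Figure D2:**
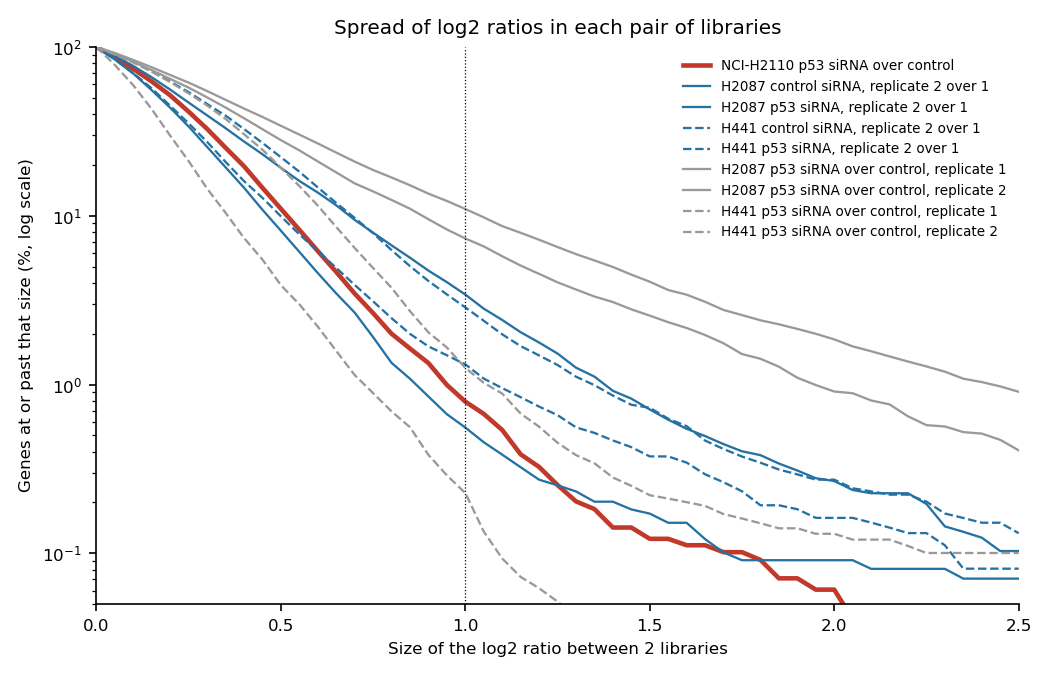
Share of genes (%, log scale) whose log2 ratio is at or past each size, for NCI-H2110 (red), for same-arm libraries of the other lines (blue) and for their p53 siRNA pairs (grey). At a log2 ratio of 1 the NCI-H2110 curve, at 0.792%, lies among the blue curves and below both NCI-H2087 pairs.

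The ratios in NCI-H2110 moved with the base composition of the transcripts. Across 9697 genes with a reference transcript, the log2 ratio correlated with GC content at r = -0.481 (rho = -0.554) and with log2 transcript length at r = 0.359 (rho = 0.408). These are descriptions across genes of the same 2 libraries, and genes are not independent replicates. With genes divided into 20 equal groups by GC, the median ratio ran from 0.27 in the AT-richest to -0.28 in the GC-richest. The replicate 2 pair of NCI-H441 leaned the opposite way (r = 0.613), its replicate 1 pair and both NCI-H2087 pairs hardly at all (r = 0.015 to 0.098). Between the 2 p53 siRNA libraries of NCI-H441, of the same arm, the ratio also followed GC content (r = 0.481). A second value is therefore given for gene groups, the GC-centred ratio, from which the median of the genes in the same GC group was subtracted. After centring, 50 genes were at least 2-fold higher (0.516% of 9697) and 13 at least 2-fold lower (0.134%).

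**Figure D3:**
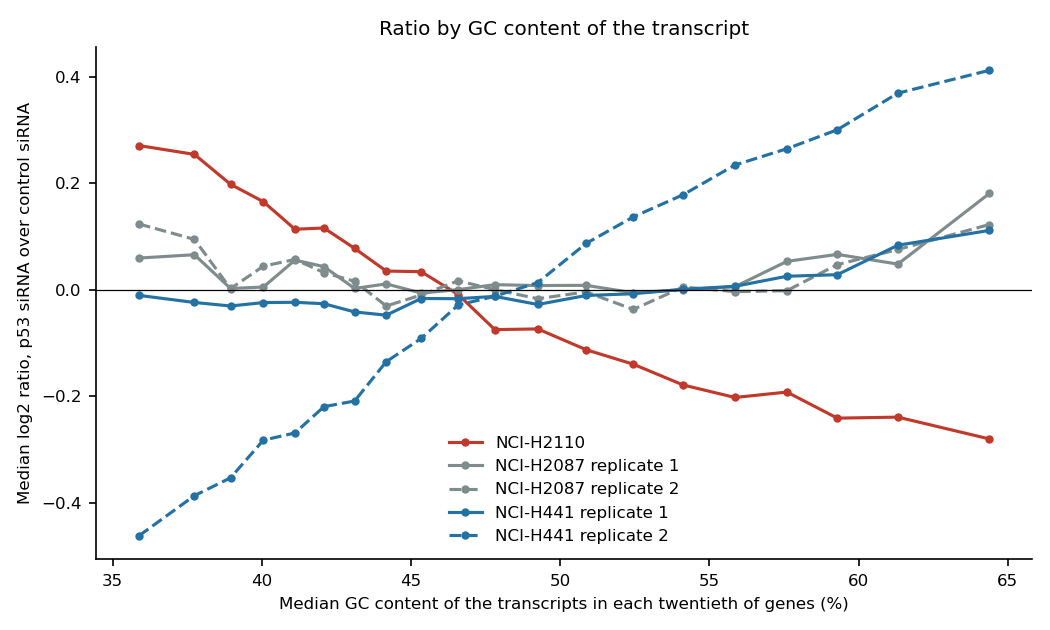
Median log2 ratio of p53 siRNA over control siRNA in 20 groups of genes ordered by transcript GC content (x axis, %). The NCI-H2110 line falls from 0.27 to -0.28, the replicate 2 pair of NCI-H441 climbs from -0.46 to 0.41, and the other pairs stay between -0.05 and 0.18.

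The rises included 3 ligands of the EGF receptor. Such ligands are made as membrane-bound precursors, and once shed they activate EGFR and its relatives on the same or neighbouring cells. Of 18 described EGFR ligands and receptor tyrosine kinases, 3 were at least 2-fold higher (all genes 0.548%), namely AREG, EREG and EPGN, and none was 2-fold lower. After GC centring AREG and EPGN were still past 2-fold, while EREG was at 0.88. RefSeq places these 3 as consecutive protein-coding genes on chromosome 4, so the 150 bases before each start are shown together, 5′ to 3′ on the plus strand (RefSeq, build GRCh38.p14). They span chr4:74308320-74308469 for EPGN, chr4:74364995-74365144 for EREG and chr4:74444986-74445135 for AREG. Capitals mark every match, on either strand, of 3 motifs that were searched. The first is TATAAA, which recruits the general transcription machinery. The second is TGACGTCA, the cyclic AMP response element. The last is GCGTG, the core of the element bound by the aryl hydrocarbon receptor.
EPGN: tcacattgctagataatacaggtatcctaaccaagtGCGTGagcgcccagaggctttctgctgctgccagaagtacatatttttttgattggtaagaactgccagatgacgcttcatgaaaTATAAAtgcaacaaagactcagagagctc
EREG: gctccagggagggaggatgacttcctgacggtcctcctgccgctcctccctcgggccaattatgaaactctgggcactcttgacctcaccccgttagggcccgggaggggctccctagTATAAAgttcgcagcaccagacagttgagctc
AREG: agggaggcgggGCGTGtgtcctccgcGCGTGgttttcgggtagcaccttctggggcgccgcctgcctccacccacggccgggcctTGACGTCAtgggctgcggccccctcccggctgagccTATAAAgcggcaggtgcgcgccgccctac

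All 3 windows hold TATAAA, starting 29 bases before the gene start in EPGN and AREG and 32 bases before it in EREG. Among 34943 RefSeq windows of this length, 6.72% hold TATAAA on either strand. The AREG window also holds TGACGTCA, found in 1.39% of windows, and GCGTG, found in 23.5%, at 2 places; EPGN holds GCGTG once. These matches describe letters and not binding.

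AREG (amphiregulin) was at 28.7 CPM in the control and 70.7 CPM in the p53 siRNA library, a log2 ratio of 1.30 (interval 1.17 to 1.43, largest same-arm difference 0.83). EREG (epiregulin) was at 31.3 and 69.4 CPM, a log2 ratio of 1.15 (1.03 to 1.28, largest same-arm difference 0.29). EPGN (epigen) was at 24.7 and 57.6 CPM, a log2 ratio of 1.22 (1.08 to 1.36). All 3 were higher with p53 siRNA by more than their same-arm differences, of which that of EPGN, 0.60, says little because this gene did not exceed 0.04 CPM in any library of the other lines. In NCI-H2087, AREG had log2 ratios of 1.08 and 1.64 and EREG of 0.92 and 0.93, whereas in NCI-H441 both lay between -0.24 and 0.04. The remaining ligands described were closer to 0, with TGFA at 0.10, HBEGF at 0.12 and EGF at -0.21.

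The receptors of this list went both ways. EGFR had a log2 ratio of 0.50, AXL of 0.68 (13.4 and 21.6 CPM) and MET of 0.32 (321 and 399 CPM). ERBB2, the preferred partner of the other EGF receptors, was lower at -0.74 (94.5 and 56.7 CPM), and DDR1, a collagen receptor, was at -0.63. The list median was 0.11, with 11 of 18 members above 0 (all genes 46.9%). After GC centring it was 0.22, with 14 of 18 above 0 (all genes 49.9%). At 1.5-fold or more, 2 members were lower before centring (all genes 2.82%) and 0 after it.

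Genes of attachment to the basement membrane leaned upward. Integrins are pairs of alpha and beta chains that bind matrix proteins. Of 11 described integrin subunits 8 had a ratio above 0 (all genes 46.9%) and 2 were at least 2-fold higher (all genes 0.548%), with a list median of 0.28 and 0.35 after GC centring. ITGB8, a chain of the integrin that releases active TGF-beta, was at 4.84 CPM in the control and 20.1 CPM in the p53 siRNA library, a log2 ratio of 2.04 (1.77 to 2.36, largest same-arm difference 0.89). ITGA2, a chain of a collagen receptor, was at 79.9 and 169.0 CPM, a log2 ratio of 1.08 (1.00 to 1.16, largest same-arm difference 0.92) that became 0.91 after GC centring. ITGB4 (0.63) and ITGA6 (0.54), which form the laminin receptor of hemidesmosomes, and ITGB6 (0.59) were also above 0, while ITGB5 was at -0.56.

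Of 13 described laminins and other basement membrane genes, 10 had a ratio above 0 (all genes 46.9%), with a median of 0.19 and 0.32 after GC centring. None reached 2-fold. The largest were COL17A1 (0.68), a collagen of hemidesmosomes, and LAMB1 (0.50).

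Basal and squamous markers had the highest median of the lists with 5 or more members described, 0.39 over 9 members and 0.46 after GC centring. Of the 9, 8 had a ratio above 0 (all genes 46.9%). The list is not independent of others: KRT17 and KRT6A are also keratins and ITGB4 is also on the integrin list. KRT17 was at 78.0 CPM in the control and 205.7 CPM in the p53 siRNA library, a log2 ratio of 1.40 (1.32 to 1.48). KRT6A was at 33.4 and 84.7 CPM, a log2 ratio of 1.34 (1.23 to 1.46). Both exceeded their largest same-arm differences of 0.63 and 1.13. These say little, being measured at 3.35 CPM or less for KRT17 and at 1.03 and 0.42 CPM for KRT6A. In NCI-H441, where KRT6A was at 5.75 to 30.4 CPM, its same-arm differences were 0.71 and 0.55. The other keratins did not share this: KRT18 was at 0.03, KRT8 at -0.15, KRT19 at -0.27 and KRT7 at -0.32, and the median of the 9 keratins was -0.10 (0.04 after GC centring). TP63, a p53 relative that specifies basal cells, was at 45.2 and 58.4 CPM, a log2 ratio of 0.37. Its ratios had the opposite sign in the other lines, at -1.75 and -2.91 in NCI-H2087 and -0.26 and -0.49 in NCI-H441. Markers at 0 counts in both libraries included KRT5, IVL, SPRR1B, SPRR3 and CALML3, and the summed level of all 20 markers was 491 CPM in the control and 798 CPM with p53 siRNA, against 144 to 764 CPM in the other 8 libraries.

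The 13 described genes of the matrix protease and plasminogen list had a median of 0.16 (0.20 after GC centring). Of these, 9 had a ratio above 0 (all genes 46.9%) and 1 was at least 2-fold higher (all genes 0.548%). TIMP3, an inhibitor of metalloproteases, was the lowest at -0.46. PLAU, the urokinase that activates plasminogen, was the 2-fold gene, at 19.0 and 39.0 CPM, a log2 ratio of 1.03 (0.87 to 1.2, largest same-arm difference 0.91). PLAT, the tissue-type activator, was at 0.66. Outside that list, TFPI2, an inhibitor of matrix-degrading serine proteases, was at 228 CPM in the control and 514 CPM in the p53 siRNA library, a log2 ratio of 1.17 (1.13 to 1.22, largest same-arm difference 0.34). Carboxypeptidase M, a surface enzyme whose gene symbol happens to be CPM, had 3021 and 7187 counts, a log2 ratio of 1.39 (1.33 to 1.45). The ectonucleotidase NT5E (CD73), which makes adenosine, was at 43.6 and 97.3 CPM, a log2 ratio of 1.16 (1.05 to 1.26).

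CDH1 (E-cadherin), the adhesion molecule of epithelial junctions, was higher at 86.4 CPM in the control and 183 CPM in the p53 siRNA library, a log2 ratio of 1.08 (1.01 to 1.16, largest same-arm difference 0.70). Its ratios in the other pairs ran from 0.49 to 1.5. The tight-junction gene CLDN12 was at 0.89 and CLDN1 at 0.65. As a group, though, the 28 junction genes had a median of -0.11, with 9 above 0 (all genes 46.9%). After GC centring it was -0.04, with 11 above 0 (all genes 49.9%). OVOL2, a repressor of mesenchymal genes, was at -0.63. At 1.5-fold or more, 3 members were higher and 2 lower before centring, and 2 and 0 after it.

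Among inflammatory genes IL1A stood out. This alarm cytokine was at 2.68 CPM in the control and 11.3 CPM in the p53 siRNA library (68 and 260 counts), a log2 ratio of 2.04 (1.68 to 2.48). Its largest same-arm difference was also 2.04 after rounding, measured at levels of 0.45 CPM or less, so the ratio was about equal to it. CXCL8, which attracts neutrophils, was at 0.92 (56.8 and 108 CPM), CXCL5 at 0.62, and the calprotectin genes S100A9 and S100A8 at 0.95 and 0.87. The 20 described genes of the NF-kB list had a median of -0.06, with RELB at -0.60 and NFKBIA at -0.57. After GC centring it was 0.06, with 14 of 20 above 0 (all genes 49.9%). At 1.5-fold or more, 3 members were higher and 1 lower before centring, and 2 and 0 after it.

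Other rises stood outside these groups. GLIPR1, a CAP-family protein, was at 2.40 and 8.84 CPM (log2 ratio 1.84), CARNMT1, the enzyme that methylates carnosine, at 18.0 and 58.1 CPM (1.69), and SLC16A7, a monocarboxylate transporter, at 19.2 and 57.5 CPM (1.58). Each of these exceeded its largest same-arm difference, which was 0.79, 0.66 and 0.94. IGFBP7, which binds insulin-like growth factors, was at 8.06 and 22.3 CPM (1.46). Of the abundant genes, the elongation factor ELL2 was at 146 and 317 CPM (1.11, and 0.95 after GC centring) and the kinase UHMK1 at 117 and 296 CPM (1.34). The anti-apoptotic MCL1 lay just under 2-fold at 519 and 1026 CPM, a log2 ratio of 0.98 and a same-arm difference of up to 1.01, so it did not exceed the spread.

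Genes that wild-type p53 activates did not move as a block. Of 29 described members of that list 18 had a ratio above 0 (all genes 46.9%), with a median of 0.14 and 0.09 after GC centring. None reached 2-fold, as was true of most genes (0.548% of all genes higher and 0.244% lower). Centring brought CDKN1A (1.17) and PLK2 (1.03) past 2-fold. CDKN1A, the inhibitor of cyclin-dependent kinases, was at 59.1 CPM in the control and 117 CPM in the p53 siRNA library, a log2 ratio of 0.98 (0.89 to 1.07) against a largest same-arm difference of 0.35. PLK2 was at 76.4 and 148 CPM (0.95), and MDM2, the ligase that degrades p53, at 199 and 273 CPM (0.46). In the opposite direction were the cytokine GDF15 (-0.81, largest same-arm difference 3.51) and NINJ1 (-0.70). At 1.5-fold or more, 2 members were lower before GC centring (all genes 2.82%) and 0 after it. The ratio of CDKN1A was also positive in all 4 pairs of the other lines (0.16 to 2.34).

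Of 25 described genes that the literature ties to mutant p53, 17 had a ratio above 0 (all genes 46.9%), and the median was 0.17 (0.13 after GC centring). Those at 1.5-fold or more were PLK2, CXCL8, AXL and CXCL5, all higher (all genes 3.94% higher and 2.82% lower). After GC centring 3 members were at least 1.5-fold higher and 1 was lower, with CXCL5 at 0.36. TXNRD1, an abundant antioxidant enzyme, was at 1380 and 1065 CPM, a log2 ratio of -0.37.

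The lowest ratio apart from genes with near-identical copies belonged to CYP1A1, the monooxygenase that the aryl hydrocarbon receptor switches on. It was at 16.2 CPM in the control and 2.25 CPM in the p53 siRNA library (413 and 52 counts), a log2 ratio of -2.81 (-3.30 to -2.43), and its largest same-arm difference was 1.40. The 150 bases before its start are shown because they hold the GCGTG core of that receptor's element, 57 bases upstream, and a TATAAA 32 bases upstream (RefSeq, build GRCh38.p14, chr15:74725529-74725678, minus strand, 5′ to 3′).
CYP1A1: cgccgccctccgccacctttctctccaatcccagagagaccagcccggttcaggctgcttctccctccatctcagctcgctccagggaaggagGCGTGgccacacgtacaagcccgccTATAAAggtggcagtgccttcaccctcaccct

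The other 11 genes of the receptor list were between -0.44 and 0.32, and AHR itself was at 0.13. AHRR, its repressor and also a target, was at -0.33, CYP1B1 at -0.12 and TIPARP at 0.16. CYP1A1 was at 1.47 CPM or less in the other lines, where its ratios were -1.95, -2.89, -1.63 and 0.51. CYP2S1, another P450, was at 71.3 and 31.2 CPM in NCI-H2110, a log2 ratio of -1.19 (-1.32 to -1.07) and of -0.95 after GC centring, while the other 8 libraries had 3.76 CPM or less.

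Several lineage genes of the distal lung were lower, though not all to a like degree. In bulk RNA, fewer cells of a kind and less RNA per cell cannot be told apart. NKX2-1 was at 55.2 CPM in the control and 26.9 CPM in the p53 siRNA library, a log2 ratio of -1.03 (-1.17 to -0.90, largest same-arm difference 0.62), which was inside 2-fold at -0.79 after GC centring. SFTA3, a surfactant-associated gene beside it, was at 27.2 and 10.5 CPM, a log2 ratio of -1.37 (-1.59 to -1.16, largest same-arm difference 1.1). HOPX, a homeodomain cofactor of alveolar cells, was at 47.8 and 27.3 CPM (-0.81). RefSeq lists the same promoter window for SFTA3 and NKX2-1, which overlap, so reads of the pair may not be separable in these counts. Its last 150 bases before the start hold none of the 3 motifs (chr14:36519557-36519706, minus strand).
SFTA3 and NKX2-1: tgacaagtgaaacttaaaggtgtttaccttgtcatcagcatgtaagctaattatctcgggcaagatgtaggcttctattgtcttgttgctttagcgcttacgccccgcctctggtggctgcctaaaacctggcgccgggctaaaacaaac

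NKX2-1 and SFTA3 were already low in NCI-H2110 compared with the other lines, where they ranged from 150 to 337 CPM and from 97 to 596 CPM. Of 14 alveolar type 2 markers only 4 reached 200 counts, all 4 with ratios below 0 and a median of -0.47 (-0.40 after GC centring, with 1 of 4 above 0 against 49.9% of all genes). Of these, LPCAT1 (-0.08, and 0.13 after GC centring) and SLC34A2 (-0.14, and -0.0007) were nearly unchanged. SLC34A2 was at 57.3 CPM in the control, against 0.90 CPM or less in NCI-H2087 and 375 to 729 CPM in NCI-H441. The surfactant genes SFTPA1, SFTPA2, SFTPB, SFTPC and SFTPD had at most 44 counts, and CLDN18 and PGC had 0 in both libraries. Mucous-cell genes were high as a sum: the 17 club and goblet markers reached 5344 and 5982 CPM, against 918 to 2557 CPM in the other libraries. AGR2 was at 1431 and 1135 CPM, against 216 CPM or less in the other lines. CEACAM6, the highest member at 1735 and 2317 CPM, was not particular to NCI-H2110, with 2006 and 1840 CPM in the NCI-H2087 controls. Epithelial identity was plain in both libraries, with KRT18 at 1597 and 1629 CPM and EPCAM at 295 and 307 CPM.

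Further falls had single genes of known function. NUPR1, a stress-induced cofactor, was at 81.9 and 35.5 CPM, a log2 ratio of -1.20, but its largest same-arm difference was 3.24. ST3GAL5, the synthase of the ganglioside GM3, was at 51.6 and 24.4 CPM, a log2 ratio of -1.08 (-1.23 to -0.94, largest same-arm difference 0.67). CMTM6, which keeps PD-L1 at the cell surface, was at 51.1 and 25.1 CPM, a log2 ratio of -1.02 (-1.17 to -0.88, largest same-arm difference 0.46), while CD274, the gene of PD-L1, was at 0.10. FLOT1 (-1.02), the calcium pump gene ATP2A3 (-1.10) and the histone gene H2BC5 (-1.08) were lower as well, although after GC centring FLOT1 was at -0.83 and ATP2A3 at -0.82. LINC01895, which had 310 and 99 counts, was at 0 in all 8 libraries of the other lines. The ID ENSG00000117289, which has no symbol in the reference and was picked after its values were seen, had 4115 and 1574 counts (-1.25).

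In 3 gene groups nearly all members had ratios below 0, whereas 46.9% of all genes had a ratio above 0. Of 53 cytosolic ribosomal protein genes 52 had a ratio at or below 0. None reached 2-fold, as was true of most genes (0.548% of all genes higher and 0.244% lower). Their median was -0.34 against -0.02 over all genes, from RPL18 (-0.69) to RPL5 (0.04). Of 36 respiratory chain subunits 33 were below 0, with a median of -0.22 and COX5B (-0.79) the lowest of those listed. NDUFA7, a complex I subunit that was not on the list and was named after its values were seen, had 1040 and 467 counts, a log2 ratio of -1.01 (-0.81 after GC centring). All 13 histone genes described were below 0, with a median of -0.31. After GC centring the 3 medians were -0.23, -0.20 and -0.33. These groups have short transcripts, and the 1942 described genes of 1983 bases or less had a median of -0.22, so the respiratory chain was at the level of other genes of its length. The ribosomal list had positive medians in the 4 other pairs (0.12 to 0.50), so its sign in NCI-H2110 is the opposite one; this difference was not tested.

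Stress programmes also had medians below 0. The median was -0.27 over 30 NRF2 targets (-0.15 after GC centring), with OSGIN1 at -0.67 and NQO1 at -0.44. It was -0.22 over 26 ATF4 targets (-0.09), with ATF5 at -0.95, PHGDH, the first enzyme of serine synthesis, at -0.91, and DDIT3 at -0.81. Both lists had members in the other direction, such as SLC7A11 at 0.42. Mitosis genes had a median of -0.07 over 35 members, 13 of them above 0 (all genes 46.9%). After GC centring their median was -0.14 with 4 of 35 above 0, against 49.9% of all genes. MKI67 was at 0.36 and FOXM1 at -0.49. The 46 genes of DNA replication and nucleotide synthesis had a median of -0.05 with 21 above 0 (all genes 46.9%). After GC centring it was 0.03 with 26 above 0 (all genes 49.9%). No gene of either proliferation list reached 2-fold, as was true of most genes (0.792% of all genes either way).

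Double-stranded RNA can switch on interferon genes in transfected cells. Of 16 described interferon-stimulated genes 5 had a ratio above 0 (all genes 46.9%), with a median of -0.11 (-0.01 after GC centring). None reached 2-fold (0.548% of all genes higher and 0.244% lower). IRF9 was the lowest at -0.65, and after GC centring 0 members were 1.5-fold or more lower. Of 12 described genes of the microRNA and RNA interference machinery 7 had a ratio above 0 (all genes 46.9%). Their median was 0.11 (0.06 after GC centring), and TARBP2 was the lowest at -0.25. AGO2 was at 37.1 and 62.1 CPM (0.74) and AGO3 at 49.4 and 79.4 CPM (0.68). Both were above their largest same-arm differences of 0.42 and 0.29. After GC centring AGO2 was at 0.75 and AGO3 at 0.48.

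**Figure D4:**
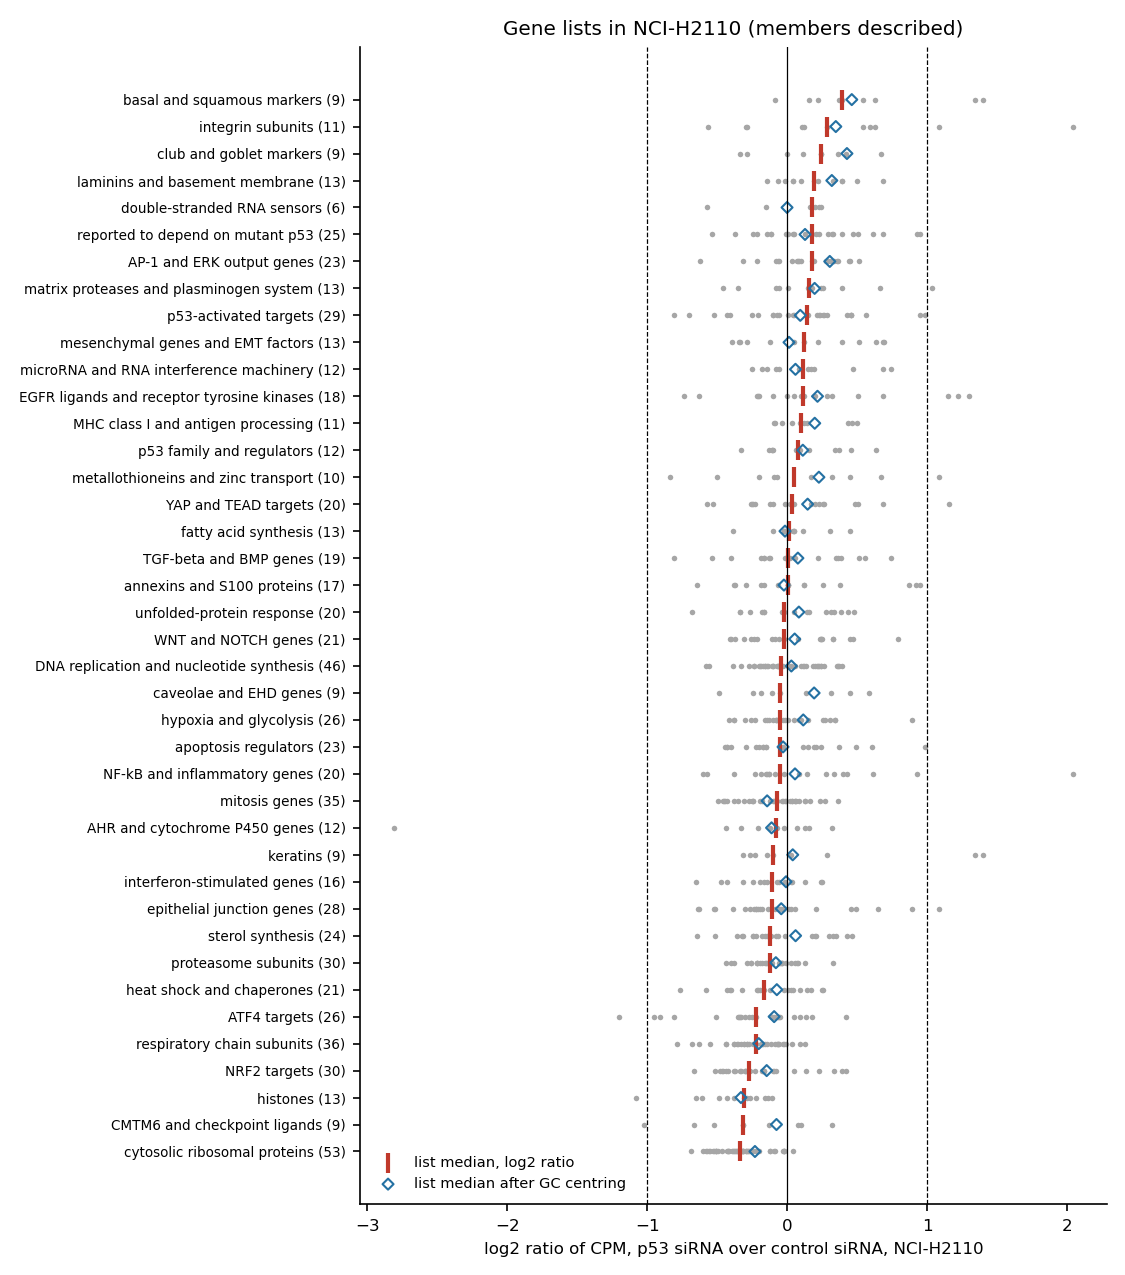
Log2 ratios of the described members (grey points) of each gene list with 5 or more members in NCI-H2110, with the list median (red bar) and the median of GC-centred ratios (blue diamond); the number described is in brackets, and ratios were drawn no further out than -3. Medians run from 0.39 for basal and squamous markers to -0.34 for ribosomal proteins.

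The same genes were then read in the other lines, which share no library with NCI-H2110. At least 2-fold higher in both NCI-H2087 pairs were 315 described genes (3.20%). Of these 247 (78.4%) had a ratio above 0 in NCI-H2110, where 46.9% of all genes did, with a median of 0.39, and 18 were at least 2-fold higher. The 176 genes at least 2-fold lower in both NCI-H2087 pairs (1.79%) had a median of -0.11 in NCI-H2110. Of these 114 (64.8%) were below 0 and 4 were at least 2-fold lower. The share above 0 was 35.2%, against 46.9% of all genes. Centred for GC, 236 of 281 rises (84.0%) and 106 of 187 falls (56.7%) kept the direction of NCI-H2087. Above 0 after centring were 84.0% of the rises and 43.3% of the falls, against 49.9% of all genes. The rises of NCI-H2087 therefore leaned the same way in NCI-H2110, and its falls less so.

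NCI-H441 gave few such genes. At least 2-fold higher in both pairs were 8 (0.0812%), of which 7 had a ratio above 0 in NCI-H2110. Another 11 were lower (0.112%), of which 6 were below 0. The shares above 0 in NCI-H2110 were 87.5% and 45.5%, against 46.9% of all genes. Across all 9853 genes the NCI-H2110 ratio correlated with the mean ratio of NCI-H2087 at r = 0.206 and with that of NCI-H441 at r = -0.004. The latter hid a positive value for its replicate 1 pair (r = 0.184) and a negative one for its replicate 2 pair (r = -0.131), the pair with the opposite GC trend. With GC centring in every pair the correlations were 0.236 and 0.303. The points are genes of the same few libraries, and these weak values are given as descriptions.

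Only 6 described genes were at least 2-fold the same way in all 4 other pairs. EFHD2, an actin-binding protein, and ANXA2, which docks plasminogen activators at the membrane, were higher there (0.0203%). In NCI-H2110, ANXA2 was at 506 CPM in the control and 959 CPM in the p53 siRNA library, a log2 ratio of 0.92 (0.89 to 0.95, largest same-arm difference 0.41), and EFHD2 was at 0.58. CMTM6, EFCAB14, CCDC43 and ABCA12 were lower there (0.0406%). In NCI-H2110 CMTM6 was at -1.02, EFCAB14 at -0.67 (330 and 208 CPM) and CCDC43 at -0.58. The lipid transporter ABCA12 was at 0.62 there (23.2 and 35.8 CPM), in the other direction. ABCA12 did not exceed 0.31 CPM in any library of the other lines, so its ratios in those lines say little.

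From the NCI-H2110 side, 17 of the 54 genes at least 2-fold higher were above 0 in all 4 other pairs, against 16.9% of all genes, and 18 were at least 2-fold higher in both NCI-H2087 pairs, against 3.20%. Examples were CARNMT1 (2.68 and 2.65 in NCI-H2087), ITGA2 (3.13 and 3.27), PLAU (3.16 and 3.03) and ELL2 (2.16 and 2.64). Of the 24 lower genes 6 were below 0 in all 4 other pairs, against 15.6% of all genes. ST3GAL5 was one, at -1.20, -1.73, -0.77 and -0.92. KRT17, IGFBP7 and SLC16A7 had no pair past 2-fold outside NCI-H2110, but their levels there were mostly low. KRT17 was at 3.35 CPM or less in the other lines. IGFBP7 was at 1.13 CPM or less in NCI-H2087 and at 0 in NCI-H441. SLC16A7 was at 1.37 CPM or less in NCI-H2087 and at 18.9 to 36.2 CPM in NCI-H441. Ratios at the low levels say little.

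**Figure D5:**
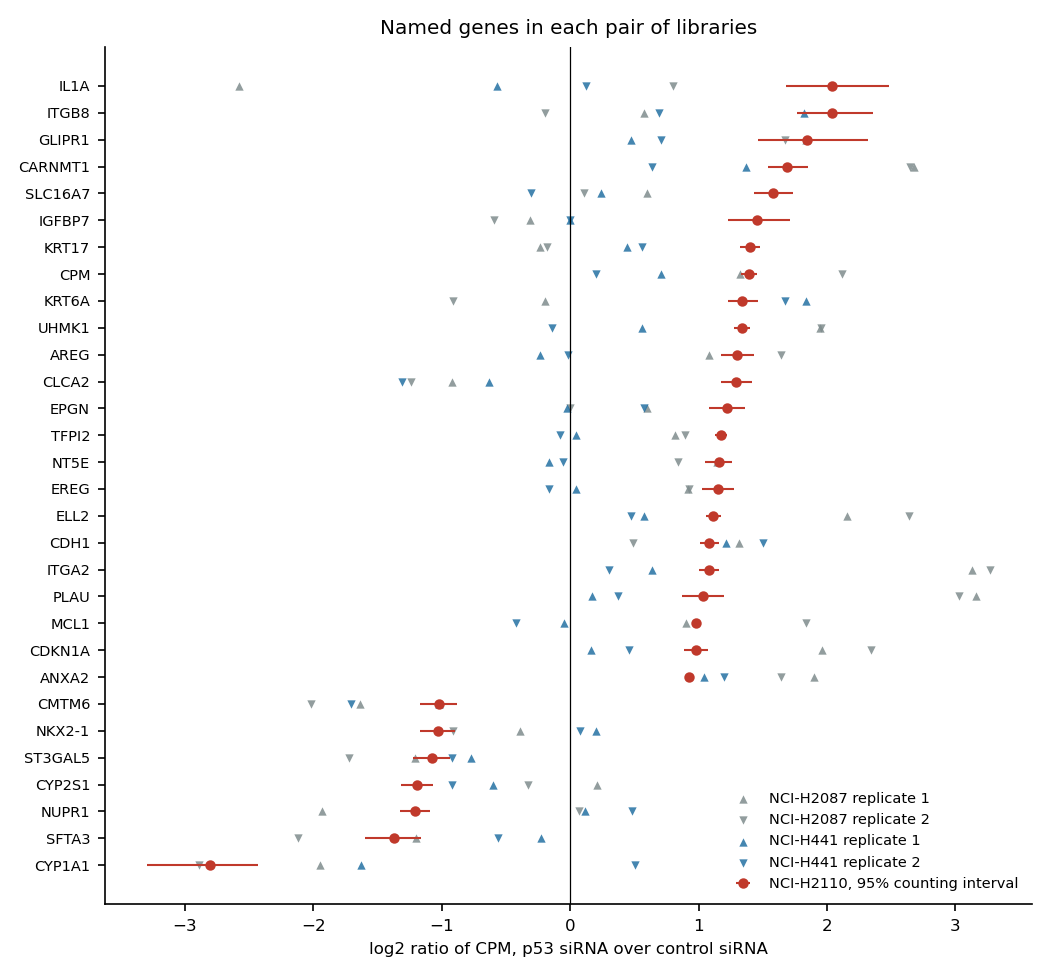
Log2 ratio of p53 siRNA over control siRNA for named genes in NCI-H2110 (red, with the 95% counting interval) and in each pair of NCI-H2087 and NCI-H441. ANXA2 and CMTM6 keep their direction in all 5, and CLCA2 is above 0 only in NCI-H2110.

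Part of the 2-fold genes have near-identical copies, between which the counting could split reads, and these are uncertain. BLOC1S5-TXNDC5 went from 315 counts to 0, yet with TXNDC5 added the ratio was -0.10. PEDS1-UBE2V1 (345 and 51 counts) was at 0.07 when summed with UBE2V1. POLR2J2 had 421 and 98 counts while its copy ENSG00000267645 had 0 and 286, and the 4 related IDs together were at -0.23. Sums for EIF3CL, SLX1A, BZW1P2, SEPTIN7P13, HNRNPA3P3, SMG1P1, RPL41P1 and UGT1A7 lay between -0.52 and 0.41, inside 2-fold, whereas CYP2B7P with CYP2B6 stayed at -1.07. Without these genes and those lacking a symbol, 47 genes were at least 2-fold higher and 17 lower.

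As to the libraries, the control had 25638101 counts and the p53 siRNA library 23353257, within the 18336672 to 25810934 of the series. Pseudogenes of mitochondrial genes took 11.8% and 12.03% of the NCI-H2110 counts, against 2.25% to 5.74% in the others, so the 2 arms matched each other in this respect. Of the 15 immune and endothelial markers that were looked up, PTPRC had 5 and 1 counts and VWF, CD8A, MS4A1, TYROBP and AIF1 had 0, and the list summed to 25.8 and 39.2 CPM, against 89.6 to 372 CPM in the other libraries. Its 1 described member, CD68, was at 0.92. Of 13 fibroblast markers 6, including DCN, LUM and PDGFRA, were at 0 counts in both libraries.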

How the data were processed

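Gene-level RNA was measured by sequencing in 10 libraries, per the labels made with a Lexogen mRNA kit. The authors deposited whole-number counts per Ensembl gene ID with no normalization. Per the submitters' processing notes, the tools were Bowtie2 and RSEM 1.2.12 and the build was hg19, with no role or order given. Whether the counts are rounded estimates is not given in the sources used here.

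Library sizes were scaled by TMM in edgeR 4.0.16 (R 4.3.3) on 17978 genes with 99.96% of the counts. Levels are CPM on those sizes, and log2 ratios add a prior count of 2. Totals ran from 18336672 to 25810934 counts. No test was made, since NCI-H2110 has 1 library per arm, and the labels do not say whether replicates of the other lines were separate cultures. Symbols came from a reference names table (39500 of 57736 IDs). Transcript length and GC came from the longest GENCODE 29 basic transcript (98.4% of the genes described), and promoters from RefSeq (GRCh38.p14). No coordinate of the deposited table was used. Of the gene IDs, 1 is not reported here and was left out of the genes described.

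The members and the 45 gene lists were chosen with earlier results of these data known. Genes were named by a rule: the 12 largest and 12 smallest ratios with a symbol, up to 4 members of each list with the largest ratios and its highest-level member, up to 8 genes each way that were 2-fold in all 4 other pairs, and the 8 most abundant 2-fold genes each way. Other list members are given as values only, and CLCA2, SLC26A2, MSRB1 and NDUFA7 were named after their values were seen. Alternatives were other scalings, DESeq2 1.42.0 size factors among them, other count minimums (50 and 500), other prior counts (0.5 and 10) and leaving out a replicate of the other lines. The 1.5-fold threshold, GC centring and the sums over copies were added after seeing the data.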

Additional observations from a re-analysis of the deposited data

Results flagged for a closer look

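In 5 genes past 2-fold in NCI-H2110, the ratio had the opposite sign in other lines, and in each case the difference between lines was not tested. Opposite signs in all 4 other pairs were found for 2 of the 54 genes at least 2-fold higher, against 15.6% of all genes described, and for 3 of the 24 lower, against 16.9%. CLCA2, a surface protein of differentiating epithelia, had a log2 ratio of 1.29 in NCI-H2110 (30.2 and 74.1 CPM) and of -0.92, -1.24, -0.63 and -1.31 in the other pairs, where its level did not exceed 1.76 CPM. SLC26A2, a sulfate transporter, was at 1.16 in NCI-H2110 (11.1 and 24.99 CPM) and between -1.0 and -0.59 in the other pairs, at levels of 5.0 to 17.6 CPM. MSRB1, which repairs oxidised methionine, was at -1.11 in NCI-H2110 (11.4 and 5.24 CPM) and at 0.82, 0.65, 0.20 and 0.19 elsewhere. EIF3CL was at -1.20 in NCI-H2110 and between 0.08 and 0.61 in the other pairs, but its sum with its copy EIF3C was at -0.23. POLR2J2 was at -1.94 in NCI-H2110 and at 3.39 and 3.89 in NCI-H2087, and the sum over its 4 related IDs was at -0.23. For the last 2, whether reads were divided between copies was not tested.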

How the results depend on the processing

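No paired analysis was possible because NCI-H2110 has 1 library per arm and its values come from no test. The counts of 54 genes at least 2-fold higher and 24 lower became 112 and 72 at a count minimum of 50, and 33 and 13 at a minimum of 500. They were 388 and 278 at 1.5-fold, and 50 and 13 after GC centring. Library totals alone, DESeq2 size factors, TMM on the 2 libraries and prior counts of 0.5 and 10 left them at 52 to 61 and 20 to 24. The median log2 ratio of all genes in NCI-H2110, -0.0241, was -0.0020 with DESeq2 size factors, -0.0117 with TMM on the 2 libraries and -0.0105 at a minimum of 500. Correlations across genes, 0.206 with NCI-H2087 and -0.004 with NCI-H441, became 0.236 and 0.303 with GC centring. Leaving out a replicate of the other lines gave 0.178 to 0.209 and -0.131 to 0.184. Of the genes 2-fold the same way in the other pairs, 2 higher and 3 lower ones kept their direction in NCI-H2110; leaving out a replicate asks for fewer pairs and gave 9 to 12 and 7 to 9, and GC centring 3 and 1. Of the list medians 13 changed sign under at least 1 alternative, among them keratins, sterol synthesis and NF-kB genes, and a scaling or prior count moved a list median by at most 0.022. Apart from GC, for which the values are given, the cause of these shifts was not tested. Depth limits genes near 200 counts: the counting interval of GDF15 ran from -1.16 to -0.49.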
